A study of Mus musculus with 10 samples.

Results

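A set of 8 genes of epithelial junctions and bile-duct-type epithelium was followed across 10 arrays of mouse hepatocyte RNA: Cldn4, Pkp2, Krt7, Krt8, Krt18, Krt19, Cdh1 and Tspan8. They were chosen by gene symbol, and every probe set that the platform's annotation gives one of these 8 symbols was taken, which gave 12 probe sets of the 12488 on each array. Of the 12, 10 probe sets, at least 1 for each gene, passed a filter on dim values and were tested among 7453. The other 2, a further probe set of Pkp2 and of Krt18, were too dim and are given as values only.

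Epithelial cells hold together through tight junctions, built on claudins, through adherens junctions, built on E-cadherin, and through desmosomes, which anchor keratin filaments. Keratins form filaments only as pairs of a type I and a type II protein. In liver, hepatocytes carry the pair Krt8 and Krt18, while Krt7 and Krt19 are classic markers of the bile duct epithelium. HIF-1alpha is the subunit of a transcription factor that is destroyed in the presence of oxygen and accumulates in hypoxia.

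The arrays form 4 groups of hepatocytes, each array hybridised with RNA of 1 sample. Normoxia is covered by 2 arrays of untreated and 2 of adeno-treated cells. Hypoxia is covered by 3 arrays of adeno-treated wild-type cells, called hypoxic wild type below, and 3 of HIF-1alpha null cells. The labels name wild type for the hypoxic adeno-treated cells and give no genotype for the normoxic ones. Adeno treatment of the null cells is neither named nor denied, and no group holds normoxic null cells. Neither the adeno vector, the way HIF-1alpha was removed, the oxygen level, the length of hypoxia nor the age or strain of the mice is given in the sources used here. The labels number the samples 1 to 3 within a group, and only the hypoxic groups have a number 3. The labels leave unsaid which arrays come from separate cultures, so p-values measure the spread between these samples, which may in part be technical.

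Values below are scaled intensities, each array having been brought to the same average by the authors. Fold changes and log2 changes were taken after adding 4.7, the 10th percentile of all values, and so understate the change of dim probe sets. Arrays of the same number deviated together from their group means, most closely among the hypoxic arrays. Each comparison was therefore also fitted with the number as a block. The 2 number 3 arrays stood apart: their 18S ribosomal control probe sets averaged 5708 and 5323, against 75.2 to 1593 on the other 8 arrays. The 12 stellate cell and fibroblast markers with a probe set summed to 4889 and 4552 there, against 9183 to 13837 on the other hypoxic arrays and 7712 to 9362 on the normoxic ones. The 10 hepatocyte markers summed to 28421 to 45370, a sum that Alb and Apoa1 lead. In bulk RNA, fewer cells of a type and less RNA per cell cannot be told apart.

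Cldn4, a claudin of tight junctions, was far higher on every hypoxic array than on every normoxic array, with or without HIF-1alpha. Its probe set 101410_at read 222.3 and 118.2 on the normoxic untreated arrays (numbers 1 and 2) and 258.1 and 152.2 on the normoxic adeno-treated ones. On the hypoxic wild-type arrays it read 1408.6, 1453.8 and 701.3 (numbers 1 to 3), and on the hypoxic null arrays 1339.9, 1586.6 and 1040.6. The lowest hypoxic value, that of wild-type number 3, was thus well above the highest normoxic value. How many of all tested probe sets separate in this way was not counted. Against normoxic adeno-treated cells alone, 11.7% of them were higher without overlap in hypoxic wild type and 13.8% in hypoxic null.

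Group means were 205 ± 74.9 (SD, n = 2) in normoxic adeno-treated, 1188 ± 422 (SD, n = 3) in hypoxic wild-type and 1322 ± 273 (SD, n = 3) in hypoxic null cells. The log2 change from normoxic adeno-treated was 2.48 in wild type (SE 0.39, limma adjusted p = 0.0299) and 2.69 in null cells (SE 0.39, limma adjusted p = 0.0191). These comparisons share their control arrays. With the number as a block the changes were 2.73 and 2.94 (SE 0.26 each, limma adjusted p = 8.22e-04 and 4.64e-04). Between arrays of the same number, hypoxic wild type was 5.38-fold (number 1) and 9.30-fold (number 2) above normoxic adeno-treated, and null was 5.12-fold and 10.1-fold above it. Null and wild-type cells under hypoxia differed by 0.21 (SE 0.35, limma adjusted p = 0.999), with the null array lower at number 1 and higher at numbers 2 and 3. Adeno treatment in normoxia gave 0.28 (SE 0.43, limma adjusted p = 0.898).

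The call of Cldn4 in wild type rested on few arrays. Leaving out 1 array at a time kept it in 5 of 10 fits. It ended without either normoxic adeno-treated array (adjusted p = 0.143 without number 1 and 0.510 without number 2), without wild-type number 1 (0.0926) or 2 (0.140), and without null number 2 (0.0589), with changes of 2.11 to 2.85. In null cells it ended without either normoxic adeno-treated array (0.0930 and 0.366) and without null number 1 (0.0540) or 2 (0.127). With the block it held in 10 of 10 such fits in both comparisons, with a highest adjusted p of 0.0283 in wild type and 0.0177 in null cells.

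The region just upstream of Cldn4 is shown because this gene had the largest change among the 8, and those of Krt8 and Krt18 because these genes stayed near their normoxic level. Each sequence is the 250 bases before the RefSeq start site on assembly GRCm38.p6, written 5′ to 3′ on the gene's own strand. Capitals mark matches, on either strand, to ACGTG or GCGTG, the core letters of the hypoxia response element to which HIF binds, and to TGANTCA, the site of AP-1 (the Fos and Jun factor). RefSeq entries were matched for 5 of the 8 genes: Cldn4, Krt7, Krt8, Krt18 and Tspan8.
Cldn4, chr5:134946935-134947184, minus strand: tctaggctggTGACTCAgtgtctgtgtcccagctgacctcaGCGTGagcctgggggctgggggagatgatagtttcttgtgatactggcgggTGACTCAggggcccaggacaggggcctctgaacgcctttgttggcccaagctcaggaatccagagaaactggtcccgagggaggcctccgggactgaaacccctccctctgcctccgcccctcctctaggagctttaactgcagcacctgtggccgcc
Krt8, chr15:102004343-102004592, minus strand: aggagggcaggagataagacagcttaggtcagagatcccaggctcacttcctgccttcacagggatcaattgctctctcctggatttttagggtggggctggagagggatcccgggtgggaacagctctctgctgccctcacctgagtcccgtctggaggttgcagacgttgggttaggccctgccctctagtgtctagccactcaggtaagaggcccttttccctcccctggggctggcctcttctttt
Krt18, chr15:102027966-102028215, plus strand: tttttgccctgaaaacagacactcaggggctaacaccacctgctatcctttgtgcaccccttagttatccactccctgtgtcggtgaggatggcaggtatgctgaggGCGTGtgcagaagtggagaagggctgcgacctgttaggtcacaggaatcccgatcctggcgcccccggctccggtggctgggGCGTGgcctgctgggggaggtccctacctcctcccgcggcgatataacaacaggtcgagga

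The Cldn4 window held 2 matches to TGANTCA, starting 240 and 158 bases before the start site, and 1 to GCGTG, starting 209 bases before it. The Krt18 window held 2 matches to GCGTG, starting 143 and 61 bases before its start site, and no match to the other motifs was found in it. The windows of Krt8, Krt7 and Tspan8 held no match to any of the 3 motifs. Of 32851 RefSeq windows of the same length, 6.75% held TGANTCA at least once and 0.338% held it 2 or more times. ACGTG or GCGTG was present in 38.6% of them, and GCGTG was present 2 or more times in 8.63%. A match describes letters in these windows and is not a measured binding site.

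Pkp2, plakophilin 2, links the cadherins of the desmosome to desmoplakin and so to keratin filaments. On group means it was highest in hypoxic wild-type cells on both tested probe sets, and hypoxic null cells lay between these and normoxic adeno-treated cells. Against the normoxic untreated mean, hypoxic null was higher on 104338_r_at (227 against 175) and lower on 104337_f_at (561 against 645). Probe set 104338_r_at read 118.0 and 126.3 on the normoxic adeno-treated arrays and 362.3, 310.7 and 321.5 on the hypoxic wild-type arrays. It read 258.3, 200.1 and 223.4 on the hypoxic null arrays and 183.2 and 167.3 on the normoxic untreated ones. None of these 4 groups overlapped with another, in the order normoxic adeno-treated, normoxic untreated, hypoxic null, hypoxic wild type. The share of all tested probe sets in this order was not computed. Of them, 11.7% lay higher without overlap in hypoxic wild type than in normoxic adeno-treated cells, and 13.8% in hypoxic null. Adeno-treated lay below untreated without overlap for 24.4%.

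Means of Pkp2 on this probe set were 122 ± 5.87 (SD, n = 2) in normoxic adeno-treated, 332 ± 27.2 (SD, n = 3) in hypoxic wild-type and 227 ± 29.3 (SD, n = 3) in hypoxic null cells. Hypoxic wild type was 2.65-fold above normoxic adeno-treated (log2 1.40, SE 0.18, limma adjusted p = 0.0102). The call ended without normoxic adeno-treated number 1 (adjusted p = 0.143) or 2 (0.158) and without wild-type number 2 (0.0534). With the block (log2 1.42, limma adjusted p = 0.00227) it held in 10 of 10 fits that left out 1 array. Hypoxic null cells were 1.82-fold above normoxic adeno-treated (log2 0.86, SE 0.18, limma adjusted p = 0.108). With the block this passed (0.88, limma adjusted p = 0.0177), and it then held in 6 of 10 fits that left out 1 array. It ended without normoxic adeno-treated number 1 (0.123) or 2 (0.0703) and without null number 1 (0.0556) or 2 (0.0597).

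The size of the hypoxic change of Pkp2 depends on the normoxic control, since the adeno-treated arrays were lower than the untreated ones. On 104338_r_at, adeno treatment gave -0.50 (SE 0.19, limma adjusted p = 0.552, and 0.170 with the block). Against all 4 normoxic arrays hypoxic wild type was at 1.15 (limma adjusted p = 0.00710) and null at 0.61 (0.0985).

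Probe set 104337_f_at read 614.5 and 674.6 in normoxic untreated, 458.5 and 437.4 in normoxic adeno-treated, 994.9, 699.9 and 889.1 in hypoxic wild-type and 571.1, 452.2 and 660.2 in hypoxic null cells. On it hypoxic wild type was higher than both normoxic groups on every array, while hypoxic null overlapped with both. The change of wild type from normoxic adeno-treated was 0.92 (SE 0.21, limma adjusted p = 0.186). With the block it was 0.84 (limma adjusted p = 0.0354), a call that held in 4 of 10 fits that left out 1 array. It ended without each normoxic adeno-treated array (0.183 without number 1 and 0.191 without number 2), each wild-type array (0.125, 0.0861 and 0.0587 without numbers 1, 2 and 3) and null number 3 (0.0582). The name of this probe set, ending in f, marks probes shared within a gene family, so related transcripts may add to it. The third probe set, 162194_r_at, read 9.5 to 24.8 and was too dim to test.

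Under hypoxia, null cells were lower than wild type on both tested Pkp2 probe sets. On 104338_r_at wild type was 1.40-, 1.54- and 1.43-fold above null at numbers 1, 2 and 3, and on 104337_f_at 1.74-, 1.54- and 1.34-fold. The groups did not overlap on either probe set, as held in this direction for 2.75% of all tested probe sets (4.03% in the other direction), and 14.4% of all tested were lower in 3 of 3 same-number pairs. The log2 differences of -0.54 (SE 0.16) and -0.62 (SE 0.19) did not pass (limma adjusted p = 0.861 and 0.943; with the block 0.196 and 0.151). In these 6 arrays no probe set of the whole table passed in limma, with 259 at an unadjusted p under 0.05. With the block 1 was higher (0.0134%) and 7 lower (0.0939%), none of them a member.

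**Figure D1:**
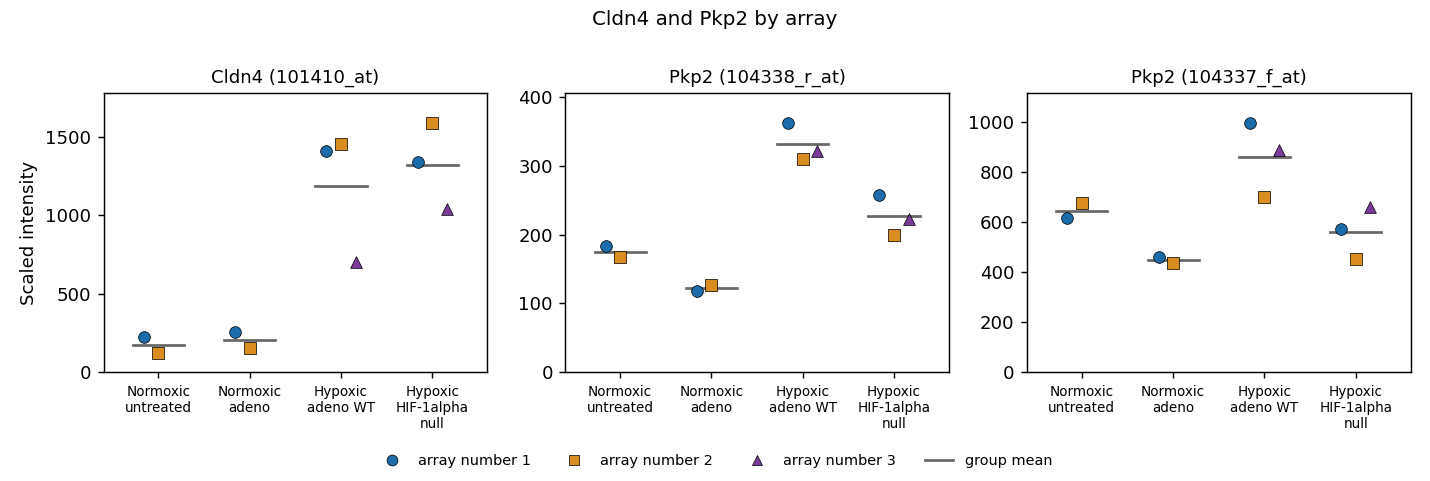
Scaled intensity (linear axis from 0) of Cldn4 and of the 2 tested Pkp2 probe sets on each of the 10 arrays, by group; symbols give the array number and bars the group mean. All 6 hypoxic arrays lie above all 4 normoxic arrays for Cldn4 and for Pkp2 104338_r_at, and the hypoxic null arrays lie below the hypoxic wild-type arrays for both Pkp2 probe sets. The first of these was not counted over all tested probe sets, and the second held for 2.75% of them.

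Krt8 and Krt18, the type II and type I keratins that pair in hepatocytes, gave bright signals that varied little. Krt8 (101009_at) read 6181.3 and 5699.4 in normoxic untreated, 7478.2 and 7456.8 in normoxic adeno-treated, 6927.7, 7637.1 and 6210.7 in hypoxic wild-type and 8478.1, 6990.0 and 6166.4 in hypoxic null cells. Krt18 (94270_at) read 5732.7 and 5492.3, 6510.1 and 6135.9, 6652.2, 6308.7 and 5153.6, and 7386.8, 6352.5 and 5027.2 in the same order. The highest value was 1.49 times the lowest for Krt8 and 1.47 times for Krt18, over all 10 arrays. For both genes the number 3 array was the lowest of its hypoxic group. The hypoxic groups overlapped with both normoxic groups, except that hypoxic wild type lay just above normoxic untreated for Krt8.

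Hypoxic wild type differed from normoxic adeno-treated by -0.11 (SE 0.16) for Krt8 and by -0.07 (SE 0.18) for Krt18. Neither passed (limma adjusted p = 0.918 and 0.971), the Krt18 value turned to 0.05 with the block, and under quantile normalization both turned to values just above 0 (0.0013 and 0.0012). Null and wild-type cells under hypoxia differed by 0.05 and 0.04 (limma adjusted p = 0.999 for both). The normoxic adeno-treated arrays were above the untreated ones without overlap for both genes, by 0.33 (SE 0.17, limma adjusted p = 0.667) and 0.17 (SE 0.20, 0.855). With 2 arrays in each group, the same held for 24.6% of all tested probe sets. Under quantile normalization the signs of both genes turned, to -0.08 and -0.19. The values of the 2 genes followed each other (Pearson r = 0.860 and Spearman rho = 0.758 over the 10 arrays). These points share the arrays' scaling. The second Krt18 probe set, 162191_at, read 11.5 to 26.1 and was too dim to test.

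Cdh1, E-cadherin, the adhesion molecule of adherens junctions, also stayed in a narrow range. Probe set 98140_at read 245.4 and 293.6 in normoxic untreated, 322.8 and 361.0 in normoxic adeno-treated, 273.3, 416.3 and 321.7 in hypoxic wild-type and 261.9, 417.7 and 385.0 in hypoxic null cells. Here the number 1 array was the lowest and the number 2 array the highest in each of the 4 groups. The change from normoxic adeno-treated was -0.04 (SE 0.25, limma adjusted p = 0.992) in hypoxic wild type and 0.03 (SE 0.25, 0.988) in hypoxic null. Null and wild type differed by 0.07 (SE 0.22, limma adjusted p = 0.999). Adeno-treated normoxic arrays were above untreated ones without overlap, by 0.34 (SE 0.27, limma adjusted p = 0.783), as held in this direction for 24.6% of all tested probe sets.

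**Figure D2:**
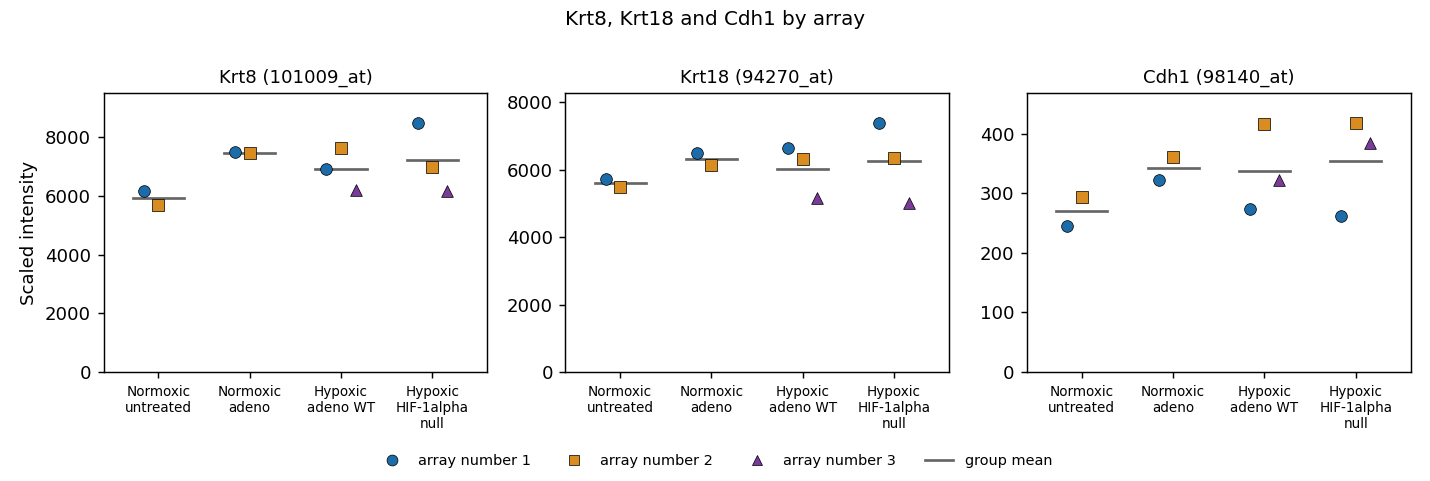
Scaled intensity (linear axis from 0) of Krt8, Krt18 and Cdh1 on each of the 10 arrays, by group; symbols give the array number and bars the group mean. Krt8 and Krt18 stay between 5027.2 and 8478.1, with the number 3 arrays lowest in the hypoxic groups, and for Cdh1 the number 1 array is lowest in every group.

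Krt19, a type I keratin of bile ducts, differed more between array numbers than between groups, and within a number it was higher in hypoxia. Probe set 92550_at read 794.5 and 232.9 in normoxic untreated, 532.9 and 201.0 in normoxic adeno-treated, 2290.9, 588.9 and 132.3 in hypoxic wild-type and 1602.3, 563.7 and 131.2 in hypoxic null cells. Both number 3 arrays lay below every other array, normoxic ones included, so the hypoxic and normoxic groups overlapped. Among the number 1 arrays and among the number 2 arrays, both hypoxic arrays were above both normoxic ones. At number 1, hypoxic wild type was 4.27-fold and null 2.99-fold above normoxic adeno-treated, and at number 2 they were 2.89-fold and 2.76-fold above it. The folds were smaller against normoxic untreated, which read higher than adeno-treated at both numbers. They were 2.87 and 2.01 at number 1, and 2.50 and 2.39 at number 2. There is no normoxic number 3 array to set beside the values of 132.3 and 131.2.

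Without a block the change of Krt19 from normoxic adeno-treated was 0.78 in wild type (SE 1.21, limma adjusted p = 0.928) and 0.59 in null cells (SE 1.21, 0.927). Group means carried the same spread: 367 ± 235 (SD, n = 2) in normoxic adeno-treated, 1004 ± 1138 (SD, n = 3) in wild type and 766 ± 756 (SD, n = 3) in null. With the number as a block, Krt19 rose by 1.77 in wild type (SE 0.17, limma adjusted p = 8.22e-04) and by 1.57 in null cells (SE 0.17, limma adjusted p = 0.00133). This rise rests on reading the number as pairing normoxic with hypoxic arrays, which the labels do not state. On deviations from group means, both normoxic number 2 arrays correlated no better with the hypoxic number 2 arrays than with the number 3 ones. The r was 0.103 to 0.173 against 0.154 to 0.253. In the block fit the number 3 arrays bear on the change from normoxia only through the difference of null and wild type. No normoxic array has that number. Both calls held in 10 of 10 block fits that left out 1 array (1.59 to 1.94 and 1.40 to 1.74). They also held in the block fit without both number 3 arrays (1.81 and 1.52, limma adjusted p = 0.00231 and 0.00474). Without the block, fits that left out 1 array gave -0.22 to 1.81 in wild type and -0.26 to 1.52 in null cells, with no call. The stellate cell and fibroblast markers also summed higher in hypoxia at number 1 (13837 in wild type and 12728 in null, against 7978 in normoxic adeno-treated), and at number 2 they summed to 10937 and 9183 against 9362. Their part in the Krt19 result was not tested. Null and wild-type cells differed by -0.20 (SE 1.08, limma adjusted p = 0.999; 0.728 with the block).

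The dimmer Krt19 probe set, 102121_f_at, lay just above the filter with a mean of 47.3, against a limit of 40.1, and passed it only through hypoxic wild-type number 1: the mean of the other 9 arrays was 26.0. It read 63.5 and 4.3 in normoxic untreated, 27.7 and 3.3 in normoxic adeno-treated, 239.2, 31.5 and 2.4 in hypoxic wild-type and 88.4, 9.6 and 3.1 in hypoxic null cells. The order of the numbers was the same as on 92550_at in every group. With the block the fitted change in wild type was 2.30 (SE 0.50, limma adjusted p = 0.0488). This is past the threshold, but the probe set was tested only because of its level in that group, so the call is no support for a change, and it held in 3 of 10 fits that left out 1 array. It ended without normoxic untreated number 1 (adjusted p = 0.0682), normoxic adeno-treated number 1 (0.248) or 2 (0.181), wild-type number 1 (0.199) or 2 (0.159) and null number 1 (0.0797) or 2 (0.0600). Several of its values are below the added 4.7.

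Krt7, the type II partner keratin of bile ducts, showed the same split by number and no change with hypoxia that passed. Probe set 97920_at read 129.5 and 73.9 in normoxic untreated, 122.3 and 68.6 in normoxic adeno-treated, 249.1, 56.2 and 9.0 in hypoxic wild-type and 174.5, 138.0 and 10.9 in hypoxic null cells. At number 1 both hypoxic arrays were above both normoxic ones, while at number 2 wild type was below and null above them. The change from normoxic adeno-treated was -0.69 in wild type (SE 1.21, limma adjusted p = 0.943) and turned to 0.40 with the block (SE 0.35, 0.582). In null cells it was -0.39 (SE 1.21, 0.957) and turned to 0.70 with the block (SE 0.35, 0.273).

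Tspan8, a tetraspanin of the cell surface of several epithelia, followed Krt7. Probe set 103494_at read 130.8 and 60.0 in normoxic untreated, 106.1 and 32.3 in normoxic adeno-treated, 155.1, 34.0 and 3.3 in hypoxic wild-type and 139.2, 38.0 and 4.6 in hypoxic null cells. The number 1 arrays read 106.1 to 155.1 over the 4 groups and the number 2 arrays 32.3 to 60.0, with hypoxic and normoxic arrays mixed at number 2, and both number 3 values were under the added 4.7. The change from normoxic adeno-treated was -0.80 in wild type and -0.73 in null cells (SE 1.29, limma adjusted p = 0.933 and 0.910), and turned to 0.26 and 0.33 with the block (SE 0.31, 0.693 and 0.572).

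**Figure D3:**
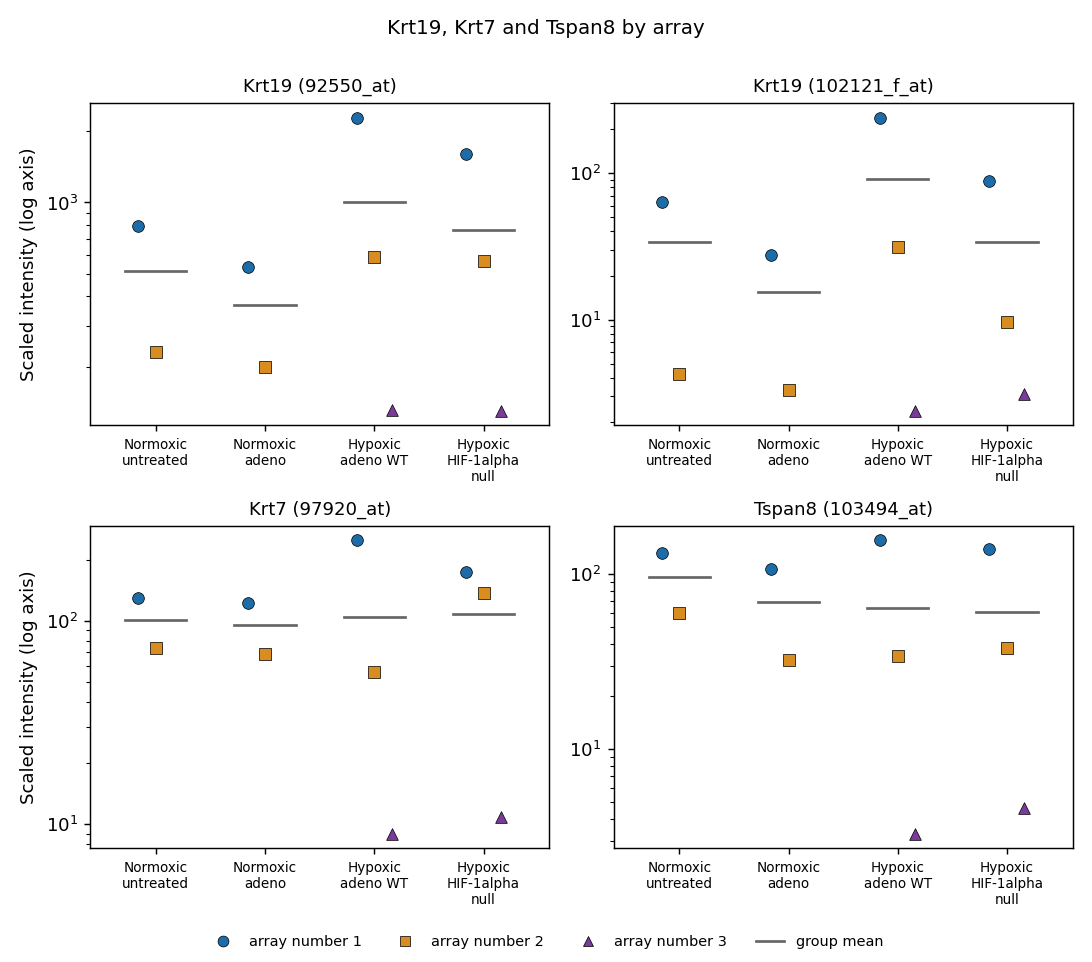
Scaled intensity (log axis) of both Krt19 probe sets, Krt7 and Tspan8 on each of the 10 arrays, by group; symbols give the array number and bars the group mean. In every group the number 1 array is above the number 2 array, and the 2 hypoxic number 3 arrays are the lowest of all; for Krt19 92550_at the hypoxic arrays of number 1 and 2 lie above the normoxic arrays of the same number.

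Krt19, Krt7 and Tspan8 differed most between the array numbers among the 8 genes. This split was known when the genes were chosen, so it is described without a test. Averaged over the 2 hypoxic groups, the number 1 array exceeded the number 3 array 14.1-fold on the brighter Krt19 probe set and 14.6-fold for Krt7. The number 3 values of the dimmer Krt19 probe set (2.4 and 3.1) and of Tspan8 (3.3 and 4.6) were under the added 4.7, so no fold is given for them. The same ratio was 1.60 for Cldn4, 1.38 for Krt18, 1.24 for Krt8, 1.14 and 0.984 for Pkp2 and 0.763 for Cdh1, and the median log2 difference of all tested probe sets was 0.00. Averaged over the 4 groups, number 1 exceeded number 2 by 3.13-fold for the brighter Krt19 probe set, 3.06-fold for Tspan8 and 1.98-fold for Krt7. Number 1 was above number 2 in all 4 groups and number 2 above number 3 in both hypoxic groups for both Krt19 probe sets, Krt7, Tspan8 and Krt18, and for 7.02% of all tested probe sets.

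Other keratin, duct and mesenchymal genes differed between the numbers to varying degrees, on the median of their tested members. Number 1 minus number 3, over the hypoxic groups, had a median log2 difference of 1.35 for 11 stellate cell and fibroblast markers, all positive. It was 0.56 for 9 further biliary markers, of which 7 were positive, and -0.38 for 10 hepatocyte markers, of which 2 were positive. Of 6 further keratins, 1 was positive: Krt20, a keratin of gut epithelium, at 3.06. It read 342.8, 109.2 and 34.0 in hypoxic wild-type and 493.5, 108.1 and 59.5 in hypoxic null cells. Of the 14 further biliary markers with a probe set, 5 were below the filter on their means: Epcam (2.2 to 22.4), Pkhd1 (1.4 to 10.6), Dmbt1 (5.5 to 28.6), Aqp1 (5.9 to 53.9) and Cftr (33.5 to 53.4). The other 9 included bright ones, such as Clu (2941.5 to 7275.8) and Anxa5 (2851.5 to 3940.1). Whether the signal of Clu and Anxa5 came from duct cells was not tested. What sets the numbers apart is not given in the labels and was not tested.

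The 8 genes were chosen with earlier results of these data known, so the counts that follow are a description and no test of the set. Pkp2 and Krt19 each give 2 of the 10 tested probe sets. Counted over the comparisons, 2 of the 10 (Cldn4 and Pkp2 104338_r_at) were called higher in hypoxic wild type than in normoxic adeno-treated cells and 0 lower, at a limma adjusted p under 0.05. Of all 7453, 24 (0.322%) were called higher and 1 (0.0134%) lower. With the block 5 of the 10 were called higher, of 3 genes, against 110 (1.48%) of all tested, and 0 lower, against 54 (0.725%). Among the 5 is the dimmer Krt19 probe set, which was tested only because of its level in hypoxic wild type; 4 are left without it. Without overlap 3 of the 10 were higher (Cldn4 and both tested Pkp2 probe sets) and 0 lower, against 11.7% and 13.1% of all tested. The log2 change was positive for 5 of the 10, all of Cldn4, Pkp2 and Krt19, against 47.1% of all tested. The median of the 10, which includes the dimmer Krt19 probe set, was 0.37, against -0.02 over all tested. It does not describe a shift of the set as a whole. In hypoxic null against normoxic adeno-treated cells, 1 of the 10 was called higher (Cldn4) and 3 with the block (Cldn4, Pkp2 104338_r_at and Krt19 92550_at), against 26 (0.349%) and 219 (2.94%) of all tested. None was called lower, against 7 (0.0939%) and, with the block, 214 (2.87%). In normoxic adeno-treated against untreated cells, 0 of the 10 and 0 of all tested passed in limma, with 619 at an unadjusted p under 0.05. With the block 0 of the 10 passed, against 8 higher (0.107%) and 10 lower (0.134%). There 3 of the 10 were higher and 2 lower without overlap, against 24.6% and 24.4% of all tested.

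**Figure D4:**
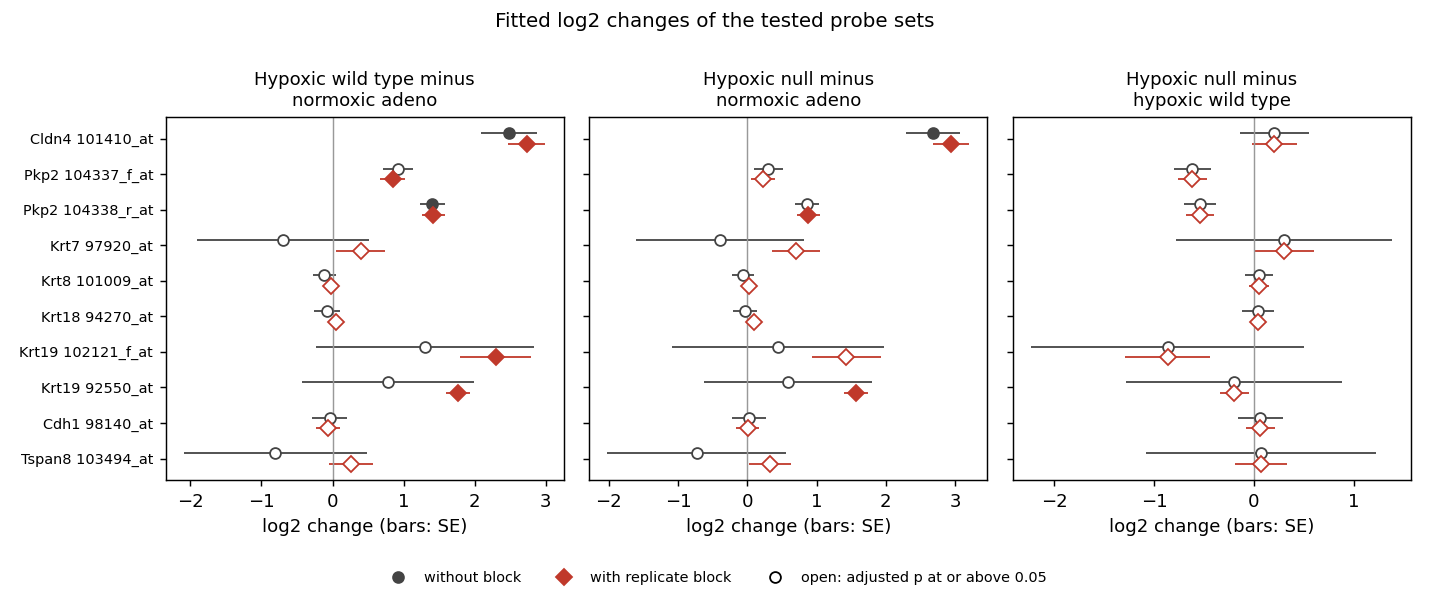
Log2 change with its standard error for the 10 tested probe sets in the 3 comparisons that involve hypoxia, without a block (circles) and with the array number as a block (diamonds); filled symbols have a limma adjusted p under 0.05. Cldn4 is 2.48 to 2.94 above normoxic adeno-treated in both hypoxic groups, Krt19 92550_at passes only with the block, and no symbol is filled in the comparison of null with wild type.

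Other genes of the same structures did not pass in hypoxic wild type without a block. Of 10 tested tight junction genes beside Cldn4, 0 were called higher and 0 lower, with a median log2 change of 0.02. Among them were Tjp1, a scaffold under the junction (0.83, limma adjusted p = 0.489), and the claudins Cldn3 (0.34, 0.688) and Cldn2 (-2.17, 0.690), as well as F11r (0.21, 0.832). Cldn2, a pore-forming claudin, read 160.2 and 161.4 in normoxic adeno-treated cells, 14.7, 134.0 and 13.8 in hypoxic wild-type, 132.4, 97.7 and 9.3 in hypoxic null and 158.7 and 24.7 in normoxic untreated cells. It was lower on every hypoxic array than on the adeno-treated normoxic ones, but the untreated arrays spanned most of that range.

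Of 7 tested desmosome genes beside Pkp2, 0 were called, with a median of 0.01. Desmoplakin (Dsp), to which plakophilins bind, was at 1.10 (SE 0.33, limma adjusted p = 0.357; 0.0797 with the block). It read 371.6 and 400.6 in normoxic adeno-treated, 854.0, 793.7 and 845.9 in hypoxic wild-type, 393.0, 958.8 and 851.1 in hypoxic null and 657.0 and 823.9 in normoxic untreated cells. The adeno-treated normoxic arrays and null number 1 were low, and the hypoxic wild-type values overlapped with the untreated ones. Plakoglobin (Jup) was at -0.63 (0.872), Dsc2 at 0.42 (0.788) and Pkp4 at -0.24 (0.892).

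Of 11 tested adherens junction genes beside Cdh1, 0 were called and 8 were positive, with a median of 0.17. They included beta-catenin (Ctnnb1, -0.48, limma adjusted p = 0.422), the actin crosslinker Actn4 (0.67, 0.454), vinculin (Vcl, 0.55, 0.633) and Lima1 (-0.50, 0.774). Of 6 further keratins, 0 were called, with a median of -0.04 (Krt6b -0.35, Krt4 0.33, Krt20 -0.41 and Krt17 0.20). Of 9 further biliary markers, 0 were called, with a median of -0.02 (Cd24a -0.57, Onecut1 0.34, Anxa5 -0.18 and Clu -0.38). Of 12 tetraspanins beside Tspan8, 0 were called, with a median of 0.02 (Tspan9 0.70, Tspan12 0.47, Tspan4 -0.24 and Tspan31 0.22). With the block 1 of these 55 tested genes (1.82%) was called higher in wild type, Tspan9 (0.85, limma adjusted p = 0.0430), and 0 lower, against 1.48% and 0.725% of all tested probe sets. In null cells with the block, 2 adherens junction genes (Vcl and Nectin2) and 2 tetraspanins (Tspan9 and Cd9) were called higher and 1 tight junction gene (Cxadr) lower. These are 7.27% and 1.82% of the 55, against 2.94% and 2.87% of all tested probe sets.

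The probe sets most like each gene over the 10 arrays were found by Pearson r on the log2 values, among tested probe sets with 1 symbol. All such points share the arrays, their scaling and their numbers. For Cldn4 they were Ralb (0.976), F3 (0.973) and Pgf (0.965). For Krt19 they were Ctnnd1 (0.976), Basp1 (0.972) and Tagln (0.969), for Krt7 Cnn2 (0.973), Myh11 (0.969) and Alg2 (0.967), and for Tspan8 Tsc22d1 (0.980), Nid1 (0.976) and Wdr1 (0.975). Those of Krt18 were Fscn1 (0.977), Anxa2 (0.977) and Pdlim7 (0.975), and those of Krt8 Gnb2 (0.957), Wdr5 (0.947) and Senp3 (0.936). For Cdh1 they were Ube2z (0.980), Cox8c (0.969) and 1810044D09Rik (0.966), and for the brighter Pkp2 probe set Eif4ebp1 (0.904), Sp3 (0.897) and Zfp1 (0.855). Among the 8 genes themselves, Krt7 and Tspan8 followed each other (Pearson r = 0.949), and Krt19 followed Krt7 (0.867) and Tspan8 (0.851). Krt18 followed them too, with an r of 0.826 with Krt7, 0.827 with Krt19 and 0.753 with Tspan8. Cldn4 had an r of 0.380 with Krt19, 0.0018 with Krt7 and -0.14 with Tspan8.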

How the data were processed

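RNA of 10 mouse hepatocyte samples was measured on one-colour oligonucleotide arrays and grouped by the labels. The deposited intensity values are linear and had been scaled by the authors: a mean trimmed of the lowest and highest 2% came to 199.6 to 200.0 on each array, with medians of 60 to 70.9. Earlier steps are not stated in the labels. The small number of arrays sets the precision. The members and lists were chosen with earlier results of these data known. Named genes were every probe set of the 8 symbols, up to 4 genes of smallest p per junction, keratin, biliary or tetraspanin list, and the 3 most alike probe sets per gene; Cxadr, Nectin2, Cd9, Alb, Apoa1 and the biliary markers below the filter, all of which are given, were named after their values were seen. Symbols came from the platform table (10855 probe sets with 1 symbol, 396 with several, 1237 with none), updated through GRCm38.p6.

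After adding 4.7, log2 was taken. Control probe sets (66) were dropped, as were probe sets whose average intensity lay below the 40th percentile, leaving 7453. The fit used limma 3.58.1 (R 4.3.3): group means of all 10 arrays, 6 residual degrees of freedom, eBayes with an intensity trend, 2-sided, with Benjamini-Hochberg adjustment over the 7453 of a comparison and a threshold of 0.05. The script was tested on simulated data.

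On deviations from group means, all 13 pairs of arrays with the same number correlated above 0.1 (0.103 to 0.677). Among hypoxic arrays the range was 0.541 to 0.677, against -0.514 to -0.156 for different numbers. Over all arrays, pairs of different number reached 0.253, so the link between normoxic and hypoxic arrays is less clear. Normoxic untreated number 2 had an r of 0.103 and 0.154 with the hypoxic number 2 arrays, and 0.154 and 0.253 with the number 3 ones. The 2 arrays of a normoxic group mirror each other, so these pairs are not independent. Deviations within a hypoxic group also cancel each other, so positive same-number correlations in part make the different-number ones negative. The number was read as pairing the samples on this basis. The fit with the replicate block has 4 residual degrees of freedom. Alternatives were other offsets, no filter, quantile normalization, all 4 normoxic arrays as controls, leaving out the number 3 arrays or any 1 array and, added after seeing the data, the same omissions with the block.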

Additional observations from a re-analysis of the deposited data

How the results depend on the processing

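Cldn4 kept its direction against normoxic adeno-treated cells, in wild type and in null, in every fit run, and so did both tested Pkp2 probe sets in wild type. Counts of called probe sets depended on the block and on single arrays. In hypoxic wild type against normoxic adeno-treated cells, 24 higher and 1 lower became 110 and 54 with the replicate block, and 7 were lower with all 4 normoxic arrays as controls; leaving out 1 array gave 3 to 31 higher, with 3 without normoxic adeno-treated number 2, and 0 to 2 lower. In hypoxic null against normoxic adeno-treated cells, 26 and 7 became 219 and 214 with the block, 16 and 2 without the number 3 arrays, and 47 and 23 with all 4 normoxic arrays; leaving out 1 array gave 3 to 25 higher, again with 3 without normoxic adeno-treated number 2, and 0 to 5 lower. In null against wild type, 0 and 0 became 1 and 7 with the block, and 1 was higher without the number 3 arrays. In normoxic adeno-treated against untreated cells, 0 and 0 became 8 and 10 with the block. Beside the calls gained with the block that are given above for Pkp2 and Krt19, the block changed no call of the 10 tested probe sets.

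In the settings of this paragraph, the log2 values that changed sign had no call in either fit. With the replicate block the sign turned for Krt7 (0.40), Krt18 (0.055), Tspan8 (0.26) in hypoxic wild type against normoxic adeno-treated, for Krt7 (0.70), Krt8 (0.029), Krt18 (0.10), Tspan8 (0.33) in hypoxic null against normoxic adeno-treated. Without the number 3 arrays the sign turned for Krt7 (0.37), Krt18 (0.036), Tspan8 (0.30) in hypoxic wild type against normoxic adeno-treated, for Cdh1 (-0.028), Tspan8 (-0.0046) in hypoxic null against wild type, for Krt7 (0.73), Krt8 (0.044), Krt18 (0.12), Cdh1 (-0.044), Tspan8 (0.29) in hypoxic null against normoxic adeno-treated. Under quantile normalization the sign turned for Krt8 (0.0013), Krt18 (0.0012) in hypoxic wild type against normoxic adeno-treated, for Krt8 (0.037), Krt18 (0.030) in hypoxic null against normoxic adeno-treated, for Krt8 (-0.084), Krt18 (-0.19) in normoxic adeno-treated against untreated. With all 4 normoxic arrays as controls the sign turned for Krt8 (0.052), Krt18 (0.011), Cdh1 (0.13) in hypoxic wild type against normoxic adeno-treated, for Krt8 (0.10), Krt18 (0.053) in hypoxic null against normoxic adeno-treated.

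When 1 array at a time was left out, the values that changed sign ranged as follows, in hypoxic wild type against normoxic adeno-treated, Krt7 -1.74 to 0.37, Krt18 -0.15 to 0.036, Krt19 102121_f_at -0.0061 to 2.55, Krt19 92550_at -0.22 to 1.81, Cdh1 -0.20 to 0.10, Tspan8 -1.86 to 0.30. The range was, in hypoxic null against wild type, Cldn4 -0.13 to 0.39, Krt7 -0.76 to 1.42, Krt8 -0.072 to 0.16, Krt18 -0.087 to 0.19, Krt19 102121_f_at -2.11 to 0.44, Krt19 92550_at -1.23 to 0.81, Cdh1 -0.072 to 0.27, Tspan8 -1.03 to 1.13. The range was, in hypoxic null against normoxic adeno-treated, Krt7 -1.03 to 0.73, Krt8 -0.19 to 0.044, Krt18 -0.16 to 0.12, Krt19 102121_f_at -0.61 to 1.45, Krt19 92550_at -0.26 to 1.52, Cdh1 -0.10 to 0.23, Tspan8 -1.68 to 0.29. The range was, in normoxic adeno-treated against untreated, Cldn4 -0.16 to 0.72, Krt7 -0.49 to 0.31, Krt19 102121_f_at -2.08 to 0.84, Krt19 92550_at -1.27 to 0.49, Tspan8 -1.34 to 0.24. All these ranges are of fits without the block, in which neither Krt19 probe set was called. With the block, 92550_at was called in both hypoxic groups and 102121_f_at in wild type, as given above. The cause of these turns was not tested. Values of Krt19 102121_f_at and Tspan8 near or under the added 4.7 have no resolved fold.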
